A study of Danio rerio with 6 samples.

Results

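The hatching gland genes described here are 7 zebrafish genes that are expressed strongly in, or mark, the hatching gland: the cathepsin L gene *ctsl1b*, the hatching enzymes *he1a* and *he1b*, the transcription factors *xbp1* and *klf17*, the tetraspanin *cd63* and the disulfide isomerase relative *agr2*. They are picked out by symbol, not by a threshold on a measured value, from a table of 23150 genes. Of the 7 symbols, 5 are gene names in the table. The remaining 2 are present under other names: the RefSeq gene table of assembly GRCz12tu gives *ctsl1b* as a synonym of *ctslb* and *klf4b* as a synonym of *klf17*. They are called *ctslb* and *klf4b* here, as in the count table, and are described beside the 5 genes found by symbol.

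The hatching gland of the zebrafish arises from the polster, the most anterior part of the axial mesendoderm, which lies under the front of the neural plate and moves onto the yolk. Its cells fill with granules of astacin metalloproteases, the hatching enzymes, and release them later to soften the chorion so that the embryo can leave it. Such cells depend on the secretory pathway, and Xbp1, which is activated in the unfolded protein response, is a regulator of secretory cell types.

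RNA-seq libraries were made from pools of whole embryos at 18 hpf, when the gland already transcribes its enzymes but hatching has not begun. The 3 mutant libraries came from *dusp2/dusp6* double mutant embryos (dusp2um287/um287;dusp6um286/um286), whose parents were themselves homozygous for both deletion alleles, so that neither the mother nor the embryo carried an intact copy of either phosphatase gene. The 3 wildtype libraries came from embryos labelled dusp2+/+;dusp6+/+. Embryos of both genotypes were freed of chorion and yolk before extraction, received no treatment and had different parents, so that the *dusp* genotype and other differences between the parents cannot be told apart.

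The expected counts (read counts in which RSEM divides reads that fit several transcripts) summed to 37989443 to 44657980 in the mutant libraries and 36310355 to 45161306 in the wildtype libraries. *dusp6* averaged 31.1 ± 2.25 CPM in mutant and 221 ± 8.23 CPM in wildtype libraries (SD, n = 3 each, CPM being a gene's count relative to the total of its library after TMM scaling), and *dusp2* had 3 to 7 counts per mutant library and 35 to 71 per wildtype library, as labelled. Mutant replicate D stood apart from the other mutant libraries: over the genes tested, its pairs with mutant replicates A and C gave a chi-square per degree of freedom of 15.5 and 12.8, against 4.34 for mutant replicates A and C and 3.62 to 5.57 for pairs of wildtype libraries. Libraries are named by the letters of their columns. Nothing states whether libraries of a genotype came from separate pools of embryos, so p-values measure only the spread between these libraries, which may be technical.

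Transcripts of the hatching gland genes differed little in amount between the genotypes, with *he1b* as the largest change. *he1b* was lower in mutant embryos, at 0.611 times its wildtype level, while *klf4b* was higher at 1.44 times. The value of *he1b* may depend on how reads were divided between it and *he1a*, and their sum did not pass the test (edgeR adjusted p = 0.23). *cd63*, *xbp1* and *ctslb* were higher by smaller amounts, at 1.19, 1.14 and 1.11 times their wildtype levels. *he1a* and *agr2* did not pass the test. All 7 genes passed the filter on low counts and were tested among 20021 genes with edgeR's quasi-likelihood test.

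None of the 7 genes, 0 of 5 found by symbol included, passed an adjusted p of 0.05 together with a fold change over 2, against 4.95% of all genes tested, and DESeq2 and limma-voom also gave 0. With the fold limit dropped and the adjusted p kept under 0.05, 4 of the 7 genes were higher in mutant embryos, against 17.4% of all genes tested, and 1 of the 7 was lower, against 17.1%. Among the 5 genes found by symbol, 2 were higher, 1 was lower and 2 did not pass. The median log2 fold change of the 7 genes was 0.15, and that of all genes tested was -0.00. The summed level of the 7 genes was 5007 to 5559 CPM in mutant and 4684 to 5063 CPM in wildtype libraries, so the sums overlapped. Most of this sum is *ctslb* and *he1a*, so it says little about the less abundant genes.

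**Figure D1:**
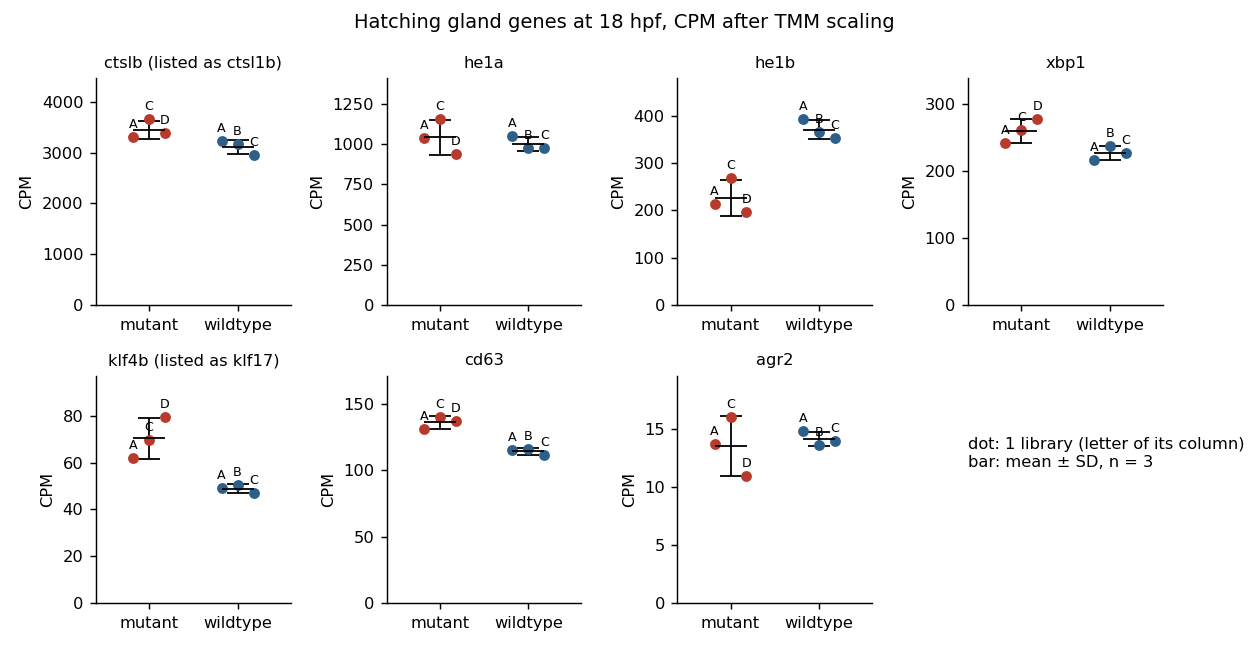
CPM after TMM scaling (vertical axes, from 0) of the 7 hatching gland genes in each mutant and wildtype library, with the letter of the library beside each point and the mean ± SD of 3 libraries as bars. All 3 mutant points lie below all wildtype points for *he1b* and above them for *ctslb*, *xbp1*, *klf4b* and *cd63*, and the groups overlap for *he1a* and *agr2*.

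Hatching enzyme 1 is an astacin protease that digests the chorion, and the zebrafish genome carries several copies of its gene side by side. *he1a* was read at 1036, 1152 and 937 CPM in mutant replicates A, C and D and at 1050, 973 and 976 CPM in wildtype replicates A, B and C. Mutant replicates C and D were the highest and the lowest of the 6 libraries, so that the wildtype values lay inside the mutant range. The log2 fold change of *he1a* was 0.06 (SE 0.066, 95% interval -0.09 to 0.21, edgeR adjusted p = 0.52).

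*he1b*, the neighbouring copy, was read at 214, 268 and 196 CPM in mutant replicates A, C and D and at 392, 366 and 352 CPM in wildtype replicates A, B and C. The highest mutant library was below the lowest wildtype library. The means were 226 ± 37.5 CPM in mutant and 370 ± 20.1 CPM in wildtype libraries (SD, n = 3 each). On the log2 scale *he1b* fell by 0.71 (SE 0.093, 95% interval -0.91 to -0.51, edgeR adjusted p = 2.0e-04). Groups without overlap were common: in 24.8% of the genes tested, all mutant libraries lay below all wildtype libraries, and in 24.3% above them. In RNA from pooled whole embryos, fewer cells of a type and less RNA per cell cannot be told apart.

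Since he1a and he1b were measured in the same libraries, their balance could be read within each library. Of the counts given to the pair, *he1b* took 17.1%, 18.9% and 17.3% in mutant replicates A, C and D and 27.2%, 27.4% and 26.5% in wildtype replicates A, B and C. The mean share was 17.8% ± 0.967 in mutant and 27.0% ± 0.431 in wildtype libraries (SD, n = 3 each), a difference of -9.25 percentage points, and each mutant library lay well outside the wildtype range. A two-sided exact permutation test of this share, which was chosen after the values of both genes were seen, gave p = 0.1, the smallest that 3 libraries against 3 can give. Many counts stand behind each share: *he1b* had 7353 to 11707 counts per mutant library and 13725 to 16196 per wildtype library, and *he1a* had 35079 to 50255 per mutant library and 36439 to 44826 per wildtype library.

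The summed counts of *he1a* and *he1b* came to 1268 ± 145 CPM in mutant and 1370 ± 63.0 CPM in wildtype libraries (SD, n = 3 each). The log2 fold change of the sum was -0.11 (SE 0.070, 95% interval -0.27 to 0.04, edgeR adjusted p = 0.23), so the amount counted for the pair as a whole did not pass the test. Without mutant replicate C, the mutant library with the highest level of both transcripts, the sum passed it (-0.20, edgeR adjusted p = 0.031). The expected counts of *he1a* and of *he1b* were whole numbers, within 0.005, in 0 of the 6 libraries, as RSEM gives where reads that fit more than 1 transcript are divided. This was not particular to these copies. *xbp1* also had whole counts in 0 of the 6 libraries, *klf4b* in 1, *cd63* in 2 and *agr2* in 5. How many reads the copies share was not analysed here, and the 2 genes' separate values depend on that division.

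In the gene order of assembly GRCz12tu, *he1a*, *he1b* and *he2* (there called he1.1, he1.2 and he1.3) lie next to each other. *he2*, the least abundant row, averaged 8.96 ± 0.316 CPM in mutant and 10.3 ± 3.13 CPM in wildtype libraries (SD, n = 3 each). Its log2 fold change was -0.21 (SE 0.17, edgeR adjusted p = 0.38), and it took 0.71% of the counts of the 3 rows in mutant and 0.75% in wildtype libraries. The first neighbour on the far side of *he2*, *bzw1a*, had a log2 fold change of -0.01 (edgeR adjusted p = 0.86). On the other side, *aox3*, the nearest row to *he1a*, had 0.60 (edgeR adjusted p = 0.047). Farther out on that side, beyond 1 row too low to be tested, *arl4ca*, *sh3bp4a* and *s100b* were lower in mutant embryos, with log2 fold changes of -0.52 (edgeR adjusted p = 0.0023), -0.45 (edgeR adjusted p = 2.1e-04) and -0.58 (edgeR adjusted p = 0.011).

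*ctslb* encodes a cathepsin L-like cysteine protease and was the most abundant of the 7 transcripts by count, without correction for transcript length. It was read at 3308, 3653 and 3385 CPM in mutant replicates A, C and D and at 3225, 3160 and 2956 CPM in wildtype replicates A, B and C. Every mutant library was above every wildtype library, though mutant replicate A exceeded wildtype replicate A by little. The log2 fold change was 0.15 (SE 0.050, 95% interval 0.04 to 0.26, edgeR adjusted p = 0.039). The call was lost without wildtype replicate B (0.16, edgeR adjusted p = 0.081), without wildtype replicate C (0.11, edgeR adjusted p = 0.17) and without mutant replicate C (0.10, edgeR adjusted p = 0.16).

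*ctslb* also stands among similar genes. The next rows of the count table on its flanks in the GRCz12tu order are si:dkey-239j18_2 on one side and si:dkey-239j18_3 and si:dkey-269i1_3 on the other, and RefSeq gives si:dkey-239j18_2 and si:dkey-269i1_3 the synonym ctsl. These neighbours were chosen for description after their values were seen. si:dkey-269i1_3 was read at 638, 612 and 658 CPM in mutant replicates A, C and D and at 344, 301 and 309 CPM in wildtype replicates A, B and C. Its log2 fold change of 1.00 (SE 0.055, edgeR adjusted p = 5.7e-07) lay just past the 2-fold limit.

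si:dkey-239j18_3 moved the other way, with 79.3, 91.6 and 55.1 CPM in mutant replicates A, C and D and 241, 245 and 206 CPM in wildtype replicates A, B and C. Its log2 fold change was -1.61 (SE 0.14, edgeR adjusted p = 1.4e-05), and its highest mutant library was far below its lowest wildtype library. si:dkey-239j18_2 had a log2 fold change of -0.04 (SE 0.066, edgeR adjusted p = 0.70), with overlapping groups. *ctslb* itself took 70.5% to 71.7% of the counts of the 4 rows in mutant and 71.0% to 71.8% in wildtype libraries, so the ranges of its share overlapped, whereas si:dkey-269i1_3 took 11.9% to 13.9% in mutant and 6.83% to 7.58% in wildtype libraries. All 4 rows had whole-number counts in 0 of the 6 libraries, as did *xbp1*, so their values too may depend on how shared reads were divided.

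**Figure D2:**
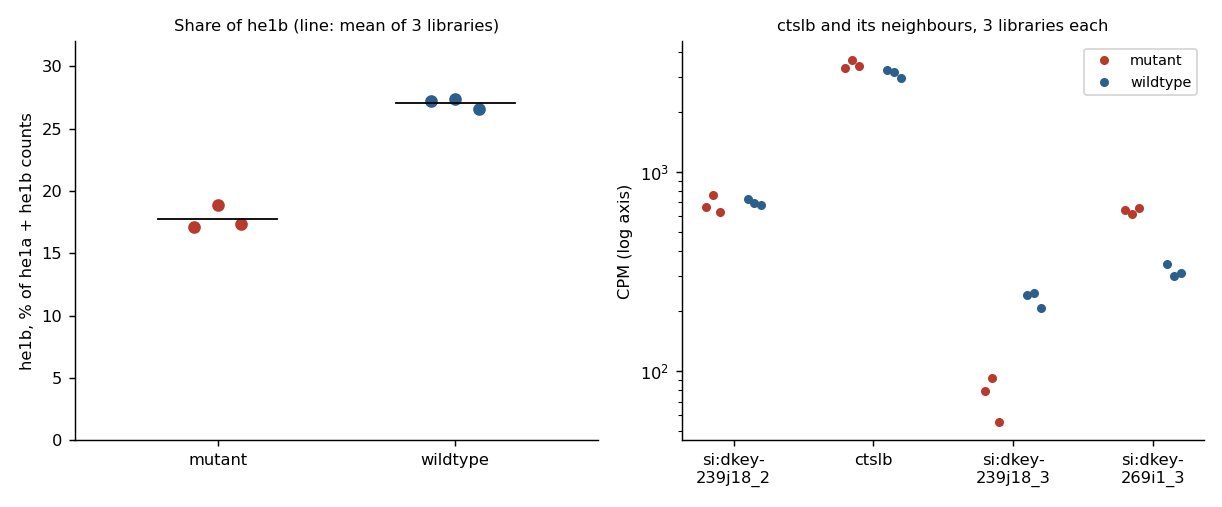
Left, *he1b* as a percentage of the counts of *he1a* and *he1b* together in each library, with a line at the mean of 3 libraries. Right, CPM on a log axis of *ctslb* and the nearest rows of the table around it, for 3 mutant and 3 wildtype libraries each. The mutant shares of *he1b* lie between 17.1% and 18.9%, below the wildtype shares of 26.5% to 27.4%, and si:dkey-239j18_3 and si:dkey-269i1_3 differ between the genotypes in opposite directions.

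The transcription factors of the gland were both higher in mutant embryos. *klf4b* (*klf17*) encodes a Krüppel-like factor of the polster and hatching gland that is also known from the blood islands. It was read at 62.1, 69.6 and 79.4 CPM in mutant replicates A, C and D and at 49.1, 50.5 and 47.0 CPM in wildtype replicates A, B and C. The lowest mutant library was well above the highest wildtype library, and the mutant libraries were the more scattered group. *klf4b* rose by 0.53 on the log2 scale (SE 0.077, 95% interval 0.36 to 0.70, edgeR adjusted p = 4.3e-04).

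*xbp1* was read at 242, 261 and 277 CPM in mutant replicates A, C and D and at 217, 238 and 228 CPM in wildtype replicates A, B and C. The groups did not overlap, but mutant replicate A and wildtype replicate B nearly met. The log2 fold change was 0.19 (SE 0.055, 95% interval 0.07 to 0.31, edgeR adjusted p = 0.019). It did not pass without wildtype replicate A (0.16, edgeR adjusted p = 0.093), without wildtype replicate C (0.19, edgeR adjusted p = 0.068) or without mutant replicate C (0.19, edgeR adjusted p = 0.054). Counts per gene do not show the splicing by which *xbp1* mRNA is activated.

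*cd63* encodes a tetraspanin of late endosomes and secretory granules. It was read at 131, 140 and 137 CPM in mutant replicates A, C and D and at 115, 116 and 111 CPM in wildtype replicates A, B and C. The libraries of each genotype lay close together and the groups were clearly apart. *cd63* rose by 0.25 on the log2 scale (SE 0.044, 95% interval 0.16 to 0.35, edgeR adjusted p = 0.0012).

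*agr2* encodes an endoplasmic reticulum protein of the disulfide isomerase family that is needed for mucin production in mammals and whose *Xenopus* relatives mark the cement gland. It was the least abundant of the 7 by count, at 13.7, 16.0 and 10.9 CPM in mutant replicates A, C and D and 14.8, 13.6 and 13.9 CPM in wildtype replicates A, B and C. The mutant libraries spread on both sides of the wildtype libraries. The log2 fold change was -0.06 (SE 0.12, 95% interval -0.31 to 0.20, edgeR adjusted p = 0.73), an interval that includes changes of moderate size in either direction.

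**Figure D3:**
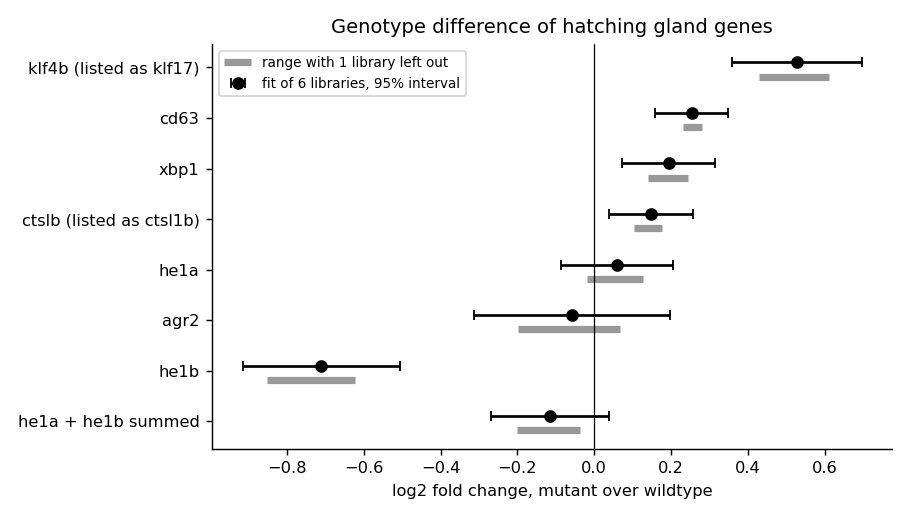
Log2 fold change (mutant over wildtype, horizontal axis) of the 7 genes and of *he1a* and *he1b* summed, with the 95% interval of the edgeR fit to 6 libraries (black) and the range of the fits that leave out 1 library each (grey). *he1b* lies between -0.85 and -0.62 and *klf4b* between 0.43 and 0.61 in every fit with a library left out, while the ranges of *he1a* and *agr2* cross 0.

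The hatching gland genes did not vary as 1 group between libraries of the same genotype. After the mean of each genotype was taken away from the log2 CPM, *he1a*, *he1b* and *agr2* went together over the 6 libraries, with a correlation of 0.98 between *he1a* and *agr2*, 0.96 between *he1a* and *he1b* and 0.93 between *he1b* and *agr2*. Mutant replicate D was the lowest and mutant replicate C the highest mutant library for each of these 3 genes. *xbp1* and *klf4b* formed another pair (r = 0.84), for which mutant replicate D was instead the highest mutant library. *ctslb* and *cd63* had r = 0.89, and *ctslb* had r = 0.07 with *xbp1*. The groups were not sharply separate: *ctslb* had r = 0.82 with *he1b* and 0.68 with *he1a*, and *cd63* had 0.66 with *klf4b*. These correlations rest on 6 libraries with 2 means removed, are shaped mostly by the mutant libraries and are given as a description.

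**Figure D4:**
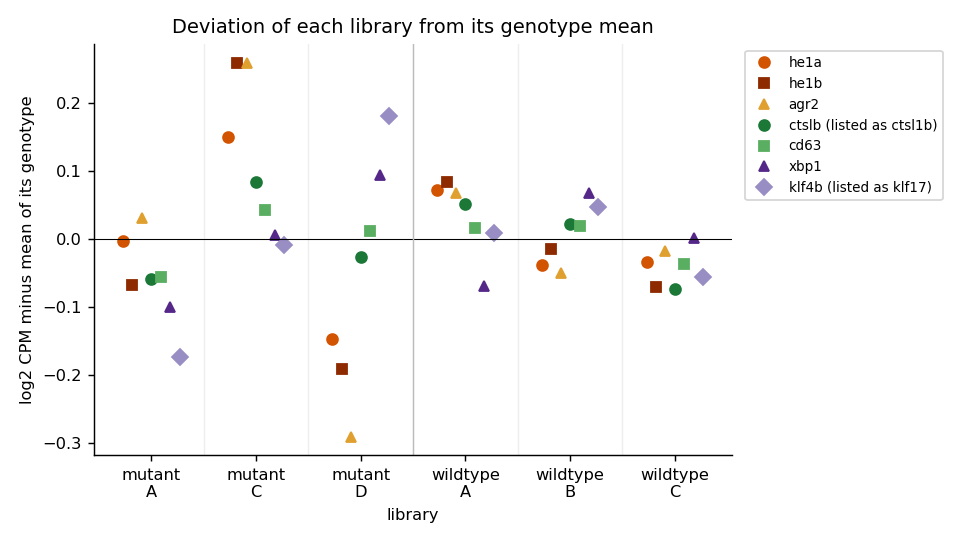
Log2 CPM of each hatching gland gene minus the mean of its genotype (vertical axis) in each of the 6 libraries. In mutant replicate D, *he1a*, *he1b* and *agr2* lie below their genotype mean and *xbp1* and *klf4b* above it, and the farthest wildtype point is *he1b* in replicate A, 0.084 above its mean.

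Among the 9776 genes tested with a mean of at least 10 CPM, the 3 profiles most like that of each hatching gland gene over the 6 libraries were found. For *he1b* they were *vars*, *ptrhd1* and *dnajc2* (Pearson r of log2 CPM 0.997 each), for *klf4b* *suco*, *arl1* and zgc:110712 (0.998 each), and for *cd63* *prdx4*, *aclya* and *osgn1* (0.997, 0.995 and 0.995). For *xbp1* they were *xkrx*, *srpx* and *gorab* (0.997, 0.997 and 0.994), for *ctslb* *eif2s3*, *atp13a* and aldh2_1 (0.978, 0.974 and 0.970), for *he1a* *arf5*, *ppp1r14ab* and *ndc80* (0.983, 0.981 and 0.980), and for *agr2* si:ch211-154o6_3, *commd7* and *tuba2* (0.982, 0.979 and 0.974). None of these is another hatching gland gene of the 7. With the genotype means removed, the closest profiles were *ctu2* for *he1b* (0.999), si:dkey-94l16_4 for *he1a* (0.998) and *trim33l* for *ctslb* (0.997). They were *ufd1l* for *cd63* (0.998), *pard6a* for *klf4b* (0.996), *ssr3* for *agr2* (0.998) and the keratin *krt18* for *xbp1* (0.9997). *ssr3* encodes a subunit of the translocon-associated complex. The second closest to *he1b*, named after its value was seen, was si:dkey-239j18_2, the neighbour of *ctslb* (0.998). Each profile has only 6 points and was compared with 9776 genes, and nothing is read from these values.

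Other genes known from the hatching gland or the polster were at or above their wildtype level where they passed the test. Of 25 listed genes, 17 were in the table and 16 were tested: 6 were higher in mutant embryos, 0 were lower and 10 did not pass, with a median log2 fold change of 0.12. Among all genes tested, 17.4% were higher and 17.1% were lower by the same test. Without mutant replicate D, 7 were higher and 1 was lower, against 16.1% and 16.9% of all genes tested in that fit. *tram1*, a translocon component, averaged 263 ± 2.76 CPM in mutant and 218 ± 5.06 CPM in wildtype libraries (log2 fold change 0.27), and the forkhead factor *foxa3* averaged 23.5 ± 1.56 CPM in mutant and 17.9 ± 1.11 CPM in wildtype libraries (0.40). The homeobox gene *otx2* was at 38.7 ± 2.80 CPM in mutant and 31.6 ± 1.23 CPM in wildtype libraries (0.29), and *cap1*, an actin regulator, at 13.0 ± 0.865 CPM in mutant and 9.77 ± 1.04 CPM in wildtype libraries (0.41). The Wnt antagonist *frzb* was at 3.32 ± 0.672 CPM in mutant and 2.14 ± 0.230 CPM in wildtype libraries (0.63; SD, n = 3 each for all 5 genes), and *gsc* was the other. Their edgeR adjusted p-values lay between 3.9e-04 for *tram1* and 0.019 for *frzb*.

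*gsc*, the goosecoid homeobox gene of the prechordal plate, was the only one of them past a 2-fold change, with a log2 fold change of 2.02 (SE 0.47, edgeR adjusted p = 0.0070). It rests on few reads: 18, 12 and 20 counts in mutant replicates A, C and D and 2, 4 and 6 counts in wildtype replicates A, B and C. The mutant counts were all above the wildtype counts. *prdm1a*, a regulator of the polster, had a log2 fold change of 0.11 that missed the threshold although its groups did not overlap (SE 0.042, edgeR adjusted p = 0.061).

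The secretory cell factors *bhlha15* (5.11 ± 0.320 CPM in mutant and 5.16 ± 0.666 CPM in wildtype libraries, log2 fold change -0.01, SE 0.12) and *creb3l1* (20.4 ± 2.77 CPM in mutant and 20.4 ± 1.14 CPM in wildtype libraries, -0.00, SE 0.092; SD, n = 3 each) had overlapping groups. Others that did not pass were *creb3l2* at 0.12, *otx1a* at 0.12, zgc:66443 at -0.01, *tmprss13a* at 0.36, *tmprss13b* at 0.04 and *npsn* at -0.69 on the log2 scale. *npsn*, also an astacin gene, was at 0.35 CPM in mutant and 0.57 CPM in wildtype libraries, and *c6ast3* was too low to be tested.

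The polster arises from the axial mesendoderm. In the list of genes known from that tissue, 8 of 12 tested genes were higher in mutant embryos and 0 were lower (18 listed, 14 in the table, median log2 fold change 0.35), against 17.4% higher and 17.1% lower among all genes tested. *sebox* was past 2-fold at 1.07 (SE 0.35, edgeR adjusted p = 0.033), with 17 to 37 counts per mutant and 12 to 15 per wildtype library. The others were *chd*, the BMP antagonist chordin, at 0.73, the Nodal co-receptor *oep* at 0.53, *ntla*, the zebrafish brachyury, at 0.57, *foxa* at 0.40, *foxa2* at 0.36, *shhb* at 0.33 and *shha* at 0.17. These, unlike *sebox*, were named after their values were seen. The direction of *klf4b* and *xbp1*, like that of *cd63* and *ctslb*, was that of most tested genes of this list, and that of *he1b* was not. All of these values come from whole embryos, so none is a level of a single tissue.

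Many genes of protein secretion were higher in mutant embryos. In the secretory pathway list, 21 of 37 tested genes were higher and 1 was lower, none past 2-fold (39 listed, 37 in the table, median log2 fold change 0.17). The shares of all genes tested were 17.4% higher and 17.1% lower. *sec61a1*, the channel of the translocon, was at 767 ± 10.4 CPM in mutant and 582 ± 8.43 CPM in wildtype libraries (log2 fold change 0.40), and the COPII coat gene *sec23a* at 167 ± 7.62 CPM in mutant and 127 ± 1.31 CPM in wildtype libraries (0.40). *srp14*, of the signal recognition particle, was at 75.2 ± 4.88 CPM in mutant and 52.9 ± 2.54 CPM in wildtype libraries (0.51; SD, n = 3 each, edgeR adjusted p = 8.4e-05 or less for the 3 genes). The lower gene was *sar1ab*, at -0.87 (edgeR adjusted p = 0.0018), a gene named after its value was seen.

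In the list of the unfolded protein response and endoplasmic reticulum chaperones, 9 of 36 tested genes were higher and 4 were lower, none past 2-fold (41 listed, 36 in the table, median 0.03), not far from the 17.4% and 17.1% of all genes tested. *atf6*, a sensor of unfolded protein, rose by 0.47 on the log2 scale (SE 0.043, edgeR adjusted p = 2.0e-05), *p4hb*, a disulfide isomerase, rose by 0.34 (SE 0.048, edgeR adjusted p = 3.4e-04), and *herpud1*, a classical stress target, fell by 0.42 (SE 0.053, edgeR adjusted p = 1.7e-04). The other genes that fell were *hspa5* (BiP, the main chaperone of this compartment) at -0.17, *atf4b2* at -0.20 and *creld2* at -0.25, named after their values were seen.

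Among the bZIP factors related to *xbp1*, 5 of 18 tested genes were higher and 4 were lower (24 listed, 19 in the table, median 0.13), not far from the 17.4% and 17.1% of all genes tested. The stress factor *atf3* was past 2-fold, though not without mutant replicate D, with 5.26 ± 0.395 CPM in mutant and 10.7 ± 1.18 CPM in wildtype libraries (log2 fold change -1.03, SE 0.11, SD, n = 3 each, edgeR adjusted p = 4.7e-05). In the disulfide isomerase family of *agr2*, 4 of 15 tested genes were higher and 2 were lower (19 listed, 16 in the table, median 0.11), again not far from the shares of all genes tested, 17.4% and 17.1%. Its leading member was zgc:165571, which RefSeq gives the synonym *agr1*: it was at 170 ± 18.4 CPM in mutant and 102 ± 1.26 CPM in wildtype libraries (log2 fold change 0.74, SE 0.067, SD, n = 3 each, edgeR adjusted p = 1.7e-05). The other leading members were *p4hb* and *tmx1*, the second at -0.46 (SE 0.070, edgeR adjusted p = 5.8e-04).

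The relatives of the remaining genes were mixed, and their counts stand beside 17.4% higher and 17.1% lower among all genes tested. In the astacin family of *he1a* and *he1b*, 2 of 7 tested genes were higher, *tll1* at 0.66 and *bmp1a* at 0.25 on the log2 scale, both tolloid-type proteases that are not hatching enzymes, and *he1b* was the 1 lower gene (19 listed, 10 in the table, median -0.18). In the cathepsin family, 7 of 15 tested genes were higher, *ctslb* among them, and 1 was lower, *ctsz* (21 listed, 16 in the table, median 0.26). The gene of this list past 2-fold was ctsl_1, at 2.71 ± 0.137 CPM in mutant and 1.03 ± 0.213 CPM in wildtype libraries (log2 fold change 1.41, SE 0.20, SD, n = 3 each, edgeR adjusted p = 3.0e-04). The neighbours of *ctslb* described above are not in this list and not in its counts. Of these, si:dkey-269i1_3 at 1.00 and si:dkey-239j18_3 at -1.61 on the log2 scale were also past 2-fold, and si:dkey-239j18_2 was not.

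Among the tetraspanins, the family of *cd63*, 8 of 30 tested genes were higher and 12 were lower (38 listed, 30 in the table, median -0.11), against 17.4% and 17.1% of all genes tested. *tspan13a* was past 2-fold, though not without mutant replicate D, at -1.02 (SE 0.29, edgeR adjusted p = 0.018) with 13 to 19 counts per mutant and 27 to 35 per wildtype library. Among Krüppel-like factors, 5 of 19 tested genes were higher, *klf4b* among them, and 2 were lower (28 listed, 20 in the table, median 0.07), not far from the 17.4% and 17.1% of all genes tested. *klf5a* rose by 0.60 (SE 0.084, edgeR adjusted p = 3.3e-04) and *klf3* by 0.43 (SE 0.082, edgeR adjusted p = 0.0023) on the log2 scale.

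**Figure D5:**
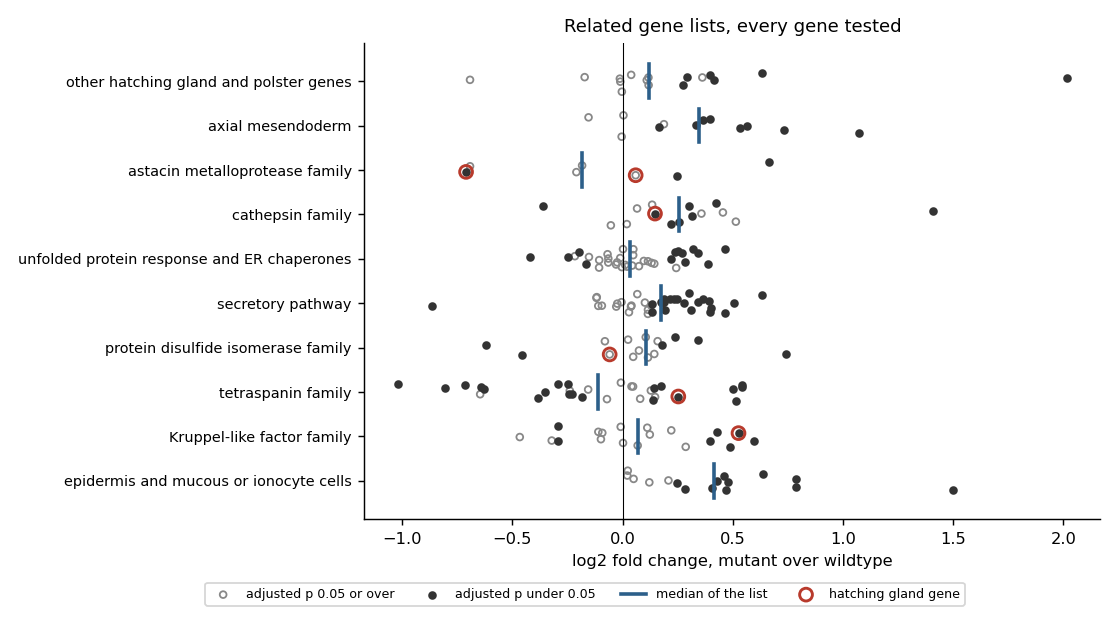
Log2 fold change (mutant over wildtype, horizontal axis) of every tested gene of 10 lists, filled where the edgeR adjusted p was under 0.05. The median of each list is a vertical bar, and the hatching gland genes in these lists are circled. *xbp1* is in none of the 10 lists. In the secretory list 21 of 37 genes are filled to the right of 0, and the tetraspanin list has its median at -0.11.

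Markers of other cell types were counted in the same way, beside the 17.4% of all genes tested that were higher and the 17.1% that were lower. Of 16 tested genes of the epidermis and its mucous cells and ionocytes, 11 were higher and 0 were lower in mutant embryos (19 listed, median log2 fold change 0.42). Their summed level was 34369 to 42134 CPM in mutant and 25400 to 26972 CPM in wildtype libraries, and the keratin zgc:92533 was past 2-fold (148 ± 4.77 CPM in mutant and 52.3 ± 1.84 CPM in wildtype libraries, log2 fold change 1.50, SD, n = 3 each, edgeR adjusted p = 1.2e-08). The part of these cells in the values of the hatching gland genes was not tested.

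Of 10 tested macrophage and neutrophil genes, 3 were higher, each past 2-fold (4.95% of all genes tested were past it in either direction), and 0 were lower (15 listed, median 0.49): *lcp1* at 1.49, *irf8* at 1.32 and *spi1b* at 1.00 on the log2 scale. Without mutant replicate D, 3 of 11 tested genes were higher and 2 were past 2-fold. Of all 20533 genes tested in that fit, 16.1% were higher, and 967 were past 2-fold in either direction. *spi1b* was read at 5.15, 5.73 and 9.11 CPM in mutant replicates A, C and D. The list summed to 37.3 to 51.2 CPM in mutant and 22.2 to 27.5 CPM in wildtype libraries. Cathepsins are abundant in such cells, and the part of these cells in the cathepsin values was not tested. In the yolk syncytial list, 4 of 15 tested genes were higher and 1, *apoea* at -1.72, was lower (23 listed, median 0.20), not far from the 17.4% and 17.1% of all genes tested. Without mutant replicate D the median was -0.07. *apoea* rests on 6, 10 and 14 counts in mutant replicates A, C and D and 55, 23 and 18 counts in wildtype replicates A, B and C. The list had sums of 1162 to 1718 CPM in mutant and 1050 to 1236 CPM in wildtype libraries. The embryos had been freed of yolk, and how much of the yolk syncytial layer stayed on them was not tested.

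Of 18 tested later-stage muscle and blood genes, 6 were higher and 3 were lower (22 listed, median -0.42), the lower share being that of all genes tested, 17.1%, and the higher one above 17.4%. The leading genes were the embryonic globins hbbe1_1 at 0.58, *hbbe3* at 0.47 and *hbae3* at 0.58 on the log2 scale, which went the same way as *klf4b*. The 3 lower genes, named after their values were seen, were the muscle genes *acta1b*, *mylpfa* and myhz1_1. The list summed to 1611, 1630 and 948 CPM in mutant replicates A, C and D and to 1715 to 1939 CPM in wildtype libraries. The low sum is that of mutant replicate D, and without it 7 of 18 genes were higher and 7 were lower, with a median of -0.18. These are 38.9% each way, against 16.1% higher and 16.9% lower among all genes tested in that fit. The part of blood cells in the value of *klf4b*, and of developmental stage in that of any hatching gland gene, was not tested. None of the listed genes present in the table was at 0 in all libraries.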

How the data were processed

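RNA-seq of 3 mutant and 3 wildtype libraries was analysed. The authors aligned strand-specific reads to the DanRer7 transcriptome with RSEM (version 1.2.28 in the submitters' processing notes, which also name GRCz10), discarded ribosomal RNA and deposited the resulting unnormalized expected counts by gene. The authors also deposited their own comparison, with a log2 fold change, a fold change as a ratio, and p-values, which was not used. Columns carry a genotype and a letter, so they were assigned to genotypes, not to numbered replicates.

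Expected counts were rounded, filtered with filterByExpr (20021 of 23150 genes), scaled by TMM and compared with edgeR 4.0.16 in R 4.3.3 (glmQLFit and glmQLFTest, mutant over wildtype, Benjamini-Hochberg adjustment over all genes tested), which was also tested on simulated data. The SE is the size of the log2 fold change divided by the square root of F. Pairs of libraries of a genotype differed beyond sampling noise, so none holds a copy of another's counts. Whether they came from separate pools of embryos cannot be told from this. Correlations used log2 CPM with a prior count of 2. Alternatives were DESeq2 1.42.0, limma-voom (limma 3.58.1), 2 other scalings, other filters, unrounded counts, other thresholds and leaving out each library.

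The 7 genes and the 15 lists of genes were chosen with earlier results of these data known, and listed genes were matched by symbol or RefSeq synonym. Named genes are the 7, *dusp6* and *dusp2*, the genes of the list of other hatching gland and polster genes (1 of which is not reported here), from each other list those past 2-fold or otherwise the 3 with the smallest p, and the 3 most alike profiles. Genes outside this rule were named after their values were seen, among them *ctsz*, *tll1* and *bmp1a* and the neighbours of the hatching enzyme and cathepsin genes. The sums of *ctslb* with its neighbours and of *he1a*, *he1b* and *he2*, and the counts of the lists without mutant replicate D, were added after the data were seen.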

Additional observations from a re-analysis of the deposited data

How the results depend on the processing

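The calls of *he1b* (log2 fold change -0.85 to -0.62), *klf4b* (0.43 to 0.61) and *cd63* (0.23 to 0.28) held under all 13 alternatives run for each. Without 1 library each, *ctslb* ranged from 0.10 to 0.18, *xbp1* from 0.14 to 0.24, *he1a* from -0.019 to 0.13, *agr2* from -0.20 to 0.067 and the sum of *he1a* and *he1b* from -0.20 to -0.037. *he1a* turned negative without mutant replicate C (-0.019) and *agr2* positive without mutant replicate D (0.067). Both missed the threshold in every alternative, and the cause was not tested. Summed with si:dkey-239j18_2 and si:dkey-269i1_3, *ctslb* gave 0.20 (edgeR adjusted p = 0.0073), and with si:dkey-239j18_3 as well 0.15 (0.036). Adding *he2* left the hatching enzyme sum at -0.12. The 992 genes called became 552 with CPM over 1 in at least 3 libraries (16793 genes tested), 881 to 1039 with a library left out and 6899 with any fold change, under which 5 of the 7 hatching gland genes passed instead of 0. Other scalings moved the median of all genes by 0.01 or less. No paired analysis was possible because the columns carry letters and none of the replicate numbers of the labels. With 3 libraries per genotype, changes of *agr2* and of genes of few counts such as *gsc* are bounded only loosely. The edgeR interval of *he1a*, -0.09 to 0.21 on the log2 scale, was narrower than that of *agr2*, -0.31 to 0.20.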
